A study of Mus musculus with 22 samples.

Results

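The type I interferon-stimulated genes described here are 39 genes taken by name from the gene count table, 39 of the 34047 genes it lists. All 39 were in the table and passed the filter on low counts in every comparison. By their known roles they were grouped as 11 sensors of nucleic acids (Ddx58, Dhx58, Eif2ak2, Ifih1, Oas1a, Oas1g, Oas2, Oas3, Oasl1, Oasl2 and Zbp1), 17 antiviral effectors (Bst2, Cmpk2, Gbp2, Gbp3, Gbp7, Ifit1, Ifit2, Ifit3, Ifit3b, Isg20, Ly6e, Mx1, Mx2, Rsad2, Samd9l, Slfn5 and Trim30a), 6 genes of protein conjugation, feedback and signalling (Herc6, Ifi35, Isg15, Parp14, Stat2 and Usp18) and 5 others (Ifi27l2a, Ifi44, Phf11d, Rtp4 and Xaf1).

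Type I interferons bind a receptor made of Ifnar1 and Ifnar2, and the signal activates a complex that includes Stat2 and Irf9. This complex binds a DNA element, the interferon-stimulated response element (ISRE), in the promoters of many antiviral genes. Dendritic cells both make interferon and respond to it, and cDC1s, the subset that cross-presents antigen to CD8 T cells, differ from cDC2s in the nucleic acid sensors they carry.

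RNA-seq covered 16 libraries of untreated Tbx21RFP-Cre mice, in which RFP marks cells that express the transcription factor T-bet. The mice were 6 to 10 weeks old, of both sexes, and every group carried the reporter allele. There were 3 spleen libraries per subset, the subsets being cDC1s and the cDC2s with and without T-bet (T-bet+ and T-bet- cDC2s). From mesenteric lymph node (MLN) there were 3 cDC1 libraries, 2 T-bet+ and 2 T-bet-. Each library held cells pooled from 2 mice, sorted as CD11c+ MHCII+ cells without CD64, Ly6C or lymphocyte markers, with cDC2s CD11b+ XCR1- and cDC1s CD11b- XCR1+. ATAC-seq, which reads how open the chromatin is, covered 2 spleen libraries of each subset. The labels do not say that replicates came from separate sorts, so p-values measure the spread between these libraries.

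The RNA-seq libraries held 20993220 to 29006549 counts each, and the ATAC-seq libraries 7270164 to 10081555 reads in windows. Tbx21, the gene of the sort reporter, ranged from 17.1 to 24.3 CPM (counts scaled to a common library size) in the spleen libraries labelled T-bet+ and from 0.272 to 2.31 in those labelled T-bet-. In MLN the ranges were 3.19 to 8.35 and 0.573 to 0.956. Of the 10 cDC1 marker genes listed, 9 were lower in each spleen cDC2 subset than in cDC1s, and 8 of the 9 cDC2 markers were higher. A list of 11 monocyte and macrophage markers summed to between 8035 and 13174 CPM in the T-bet- cDC2 libraries of both tissues and to at most 1484 CPM in all others. Of these 11, Fcgr1 and Mertk were at 0 in 1 library each. The MLN libraries named number 1, cDC1 replicate 1 and T-bet+ cDC2 replicate 1, deviated from their groups together (r = 0.66 across genes, which are not independent). Their 7 migratory DC markers summed to 4315 and 3163 CPM, against 11622 to 15877 CPM in the other MLN libraries. In these bulk samples, fewer cells of a type and less RNA per cell cannot be told apart.

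Many promoters of these genes held the letters of the response element. Here an ISRE match is the core of 2 copies of GAAA separated by 2 bases, on either strand, where matches may overlap each other and other motifs. RefSeq (GRCm38.p6) gave a promoter, 250 bases before to 50 after a start, for 29 of the 39 members. Of these, 18 held at least 1 match (62.1%), and 8 held several. In the same windows of all 13771 genes of the table with a RefSeq promoter, 527 held 1 (3.83%). A match is a run of letters, not a shown binding site. The 5 promoters below cover genes whose RNA was higher in cDC2s (Isg15, Oas1a, Ifit3, Gbp3) and one whose RNA was higher in spleen cDC1s than in spleen T-bet+ cDC2s (Trim30a). Each line gives the 200 bases before the gene start, 5′ to 3′ on the gene's strand, with ISRE matches in capitals. They lie at chr4:156200819-156201018 (minus strand), chr5:120907526-120907725 (minus), chr19:34583329-34583528 (plus), chr3:142559844-142560043 (plus) and chr7:104465194-104465393 (minus).
Isg15: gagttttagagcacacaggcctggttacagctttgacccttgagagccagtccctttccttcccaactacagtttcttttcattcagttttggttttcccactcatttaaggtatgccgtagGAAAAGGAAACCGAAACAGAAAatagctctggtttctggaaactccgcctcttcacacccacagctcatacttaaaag
Oas1a: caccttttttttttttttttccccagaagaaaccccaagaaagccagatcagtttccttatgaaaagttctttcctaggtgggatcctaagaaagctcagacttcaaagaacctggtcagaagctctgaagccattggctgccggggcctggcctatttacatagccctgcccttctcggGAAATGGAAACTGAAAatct
Ifit3: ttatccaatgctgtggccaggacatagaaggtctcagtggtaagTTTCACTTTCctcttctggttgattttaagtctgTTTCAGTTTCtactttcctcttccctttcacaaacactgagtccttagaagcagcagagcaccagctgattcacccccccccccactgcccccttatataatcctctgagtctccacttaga
Gbp3: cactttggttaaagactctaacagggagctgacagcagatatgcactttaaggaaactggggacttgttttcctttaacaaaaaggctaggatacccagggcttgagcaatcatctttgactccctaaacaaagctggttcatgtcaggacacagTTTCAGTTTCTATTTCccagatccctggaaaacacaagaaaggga
Trim30a: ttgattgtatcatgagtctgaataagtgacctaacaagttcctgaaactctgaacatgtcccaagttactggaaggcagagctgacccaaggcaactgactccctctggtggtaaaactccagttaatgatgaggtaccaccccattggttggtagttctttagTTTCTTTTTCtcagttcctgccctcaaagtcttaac
Isg15 held 3 overlapping matches, Oas1a, Ifit3 and Gbp3 held 2 each, and Trim30a held 1. For Rtp4, whose promoter was not in the RefSeq table, the part of its strongest promoter window before the transcript start is shown, since the window was more accessible in both cDC2 subsets than in cDC1s (chr16:23609816-23609918, plus strand). It held 4 matches, also in capitals.
Rtp4: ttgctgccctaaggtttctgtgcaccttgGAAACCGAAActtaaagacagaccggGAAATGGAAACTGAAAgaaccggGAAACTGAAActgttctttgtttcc
Of 2 further elements, the composite element for PU.1 and IRF4 or IRF8 (GGAA, 2 bases, GAAA) was found in 3 of the 29 member promoters (10.3%, against 2.91% of all) and the STAT element (TTC, 3 bases, GAA) in 7 (24.1%, against 8.7% of all). Several members are neighbours in the genome (mm10, GENCODE M21). The Ifit genes lie together on chromosome 19, from Ifit2 at chr19:34550694-34576419 to Ifit1 at chr19:34640871-34650009. Gbp7, Gbp3 and Gbp2 follow each other on chromosome 3, and Oas2, Oas3, Oas1g and Oas1a on chromosome 5. Ifit3 and Ifit3b, Oas1a and Oas1g, and the Gbp genes are similar in sequence, and reads that align equally well to both copies were dropped by the unique-read counting, so their values are uncertain. Usp18, Oasl1, Oas2, Herc6 and Rtp4, among others, share bases with another annotated gene, and the use of strand in the counting is not given in the sources used here.

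The members spanned a wide range of levels. Per kilobase of exon, and averaged over the group means of a tissue, the 5 most abundant in spleen were Ly6e (562.1 CPM per kb), Ifi27l2a (158.3), Ifi35 (91.7), Isg15 (86.4) and Bst2 (72.1). In MLN they were Ly6e (301.5 CPM per kb), Ifi27l2a (183.0), Gbp2 (177.4), Usp18 (164.4) and Bst2 (128.7). Ly6e, a small membrane-anchored protein that restricts virus entry, was the most abundant member in both tissues. Ifi44 was the least abundant in spleen, at 0.433 CPM per kb, and Cmpk2, a nucleotide kinase of mitochondria, in MLN, at 1.54 CPM per kb. Ifi27l2a ranked high in spleen only through cDC2s, with group means from 11.2 CPM per kb in cDC1s to 271.0 in T-bet- cDC2s. In spleen, cDC1s had the lowest group mean for 27 of the 39 members and in MLN for 22. Summed over all members but Ly6e, spleen cDC1 libraries held 844 to 1213 CPM, spleen cDC2 libraries 1540 to 1972, MLN cDC1 libraries 2515 to 2640 and MLN cDC2 libraries 3152 to 4223. With Ly6e included this order no longer held. The sums were then 3561 to 4257 CPM in spleen cDC1s, 2946 to 4093 in spleen T-bet- and 3225 to 3400 in spleen T-bet+ cDC2s. In MLN they were 3512 to 5282 CPM in cDC1s, 4297 to 5450 in T-bet- and 4239 to 4408 in T-bet+ cDC2s. T-bet- cDC2s had the highest mean for 20 in spleen and 16 in MLN, and T-bet+ cDC2s for 11 and 15.

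**Figure D1:**
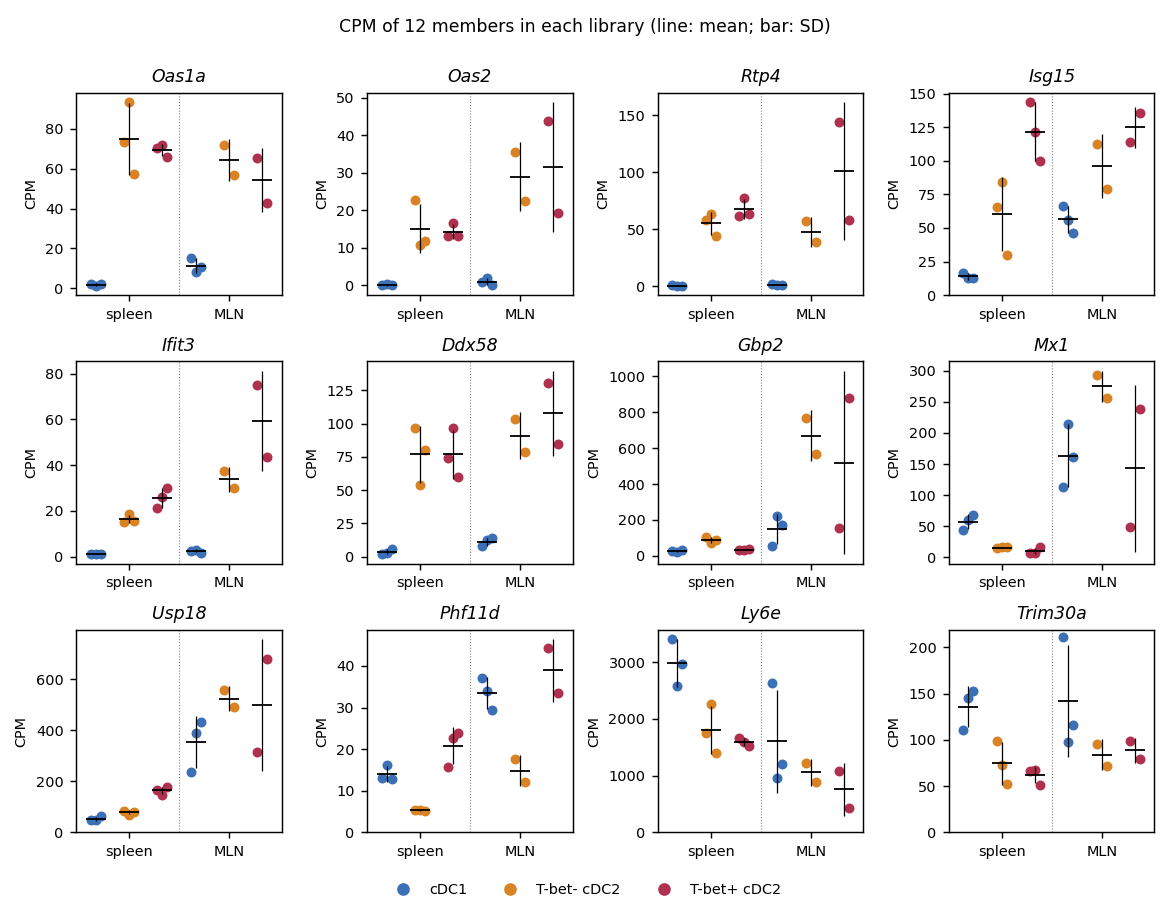
CPM (y axis) of 12 members in each of the 16 libraries, by tissue and subset. Points are libraries, lines group means and bars SD. The cDC1 libraries lie near 0 for Oas2, Rtp4 and Ifit3 in both tissues, and among the spleen libraries those of cDC1s lie highest for Mx1, Ly6e and Trim30a.

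The largest set of differences in spleen separated cDC2s of either kind from cDC1s. Of the 39 members, 19 were higher and 3 lower in T-bet+ cDC2s than in cDC1s, where 9.98% of all 14377 genes tested were higher and 8.2% lower (edgeR quasi-likelihood test, adjusted p under 0.05). In T-bet- cDC2s, 19 were higher and 3 lower than in cDC1s, where 9.65% of all genes were higher and 6.2% lower. The median log2 fold change of the members was 1.12 for T-bet+ cDC2s and 1.34 for T-bet- cDC2s, while the median of all genes was 0.03 and -0.01. These 2 comparisons share the cDC1 libraries. Of the 5 neutrophil markers tested, 4 were higher in each cDC2 subset than in cDC1s, with sums of 17.2 to 31.8 CPM in cDC1s and 65.3 to 111 CPM in cDC2s. Of the 11 monocyte and macrophage markers, 8 were higher in T-bet- cDC2s, while 4 were higher and 4 lower in T-bet+ cDC2s. Of 3 T and NK cell markers tested, 2 were higher in the T-bet+ subset and 1 in the T-bet- subset. Of 8 plasmacytoid DC markers tested, 2 were higher and 3 lower in the T-bet+ subset, and 3 and 2 in the T-bet- subset. All 10 listed summed to 75.7 to 103 CPM in cDC1s, 127 to 150 in T-bet+ and 182 to 230 in T-bet- cDC2s. Of 4 B cell markers tested, 2 were higher and 0 lower in the T-bet+ subset, and 2 and 1 in the T-bet- subset. The part of these markers in the members' differences was not tested. All of the 10 members with the largest changes in each comparison kept their calls in the 6 fits that left out 1 library.

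**Figure D2:**
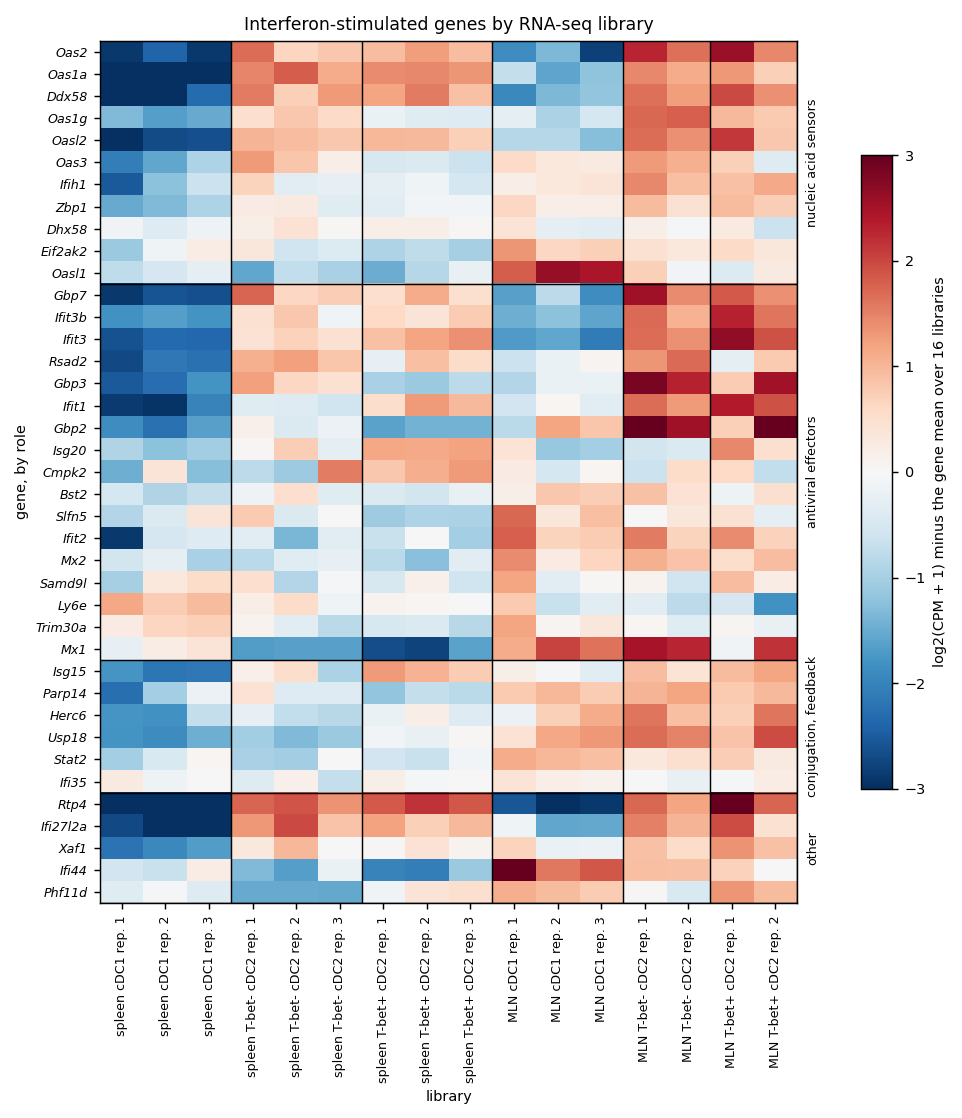
Heat map of the 39 members, ordered by role, in the 16 RNA-seq libraries. Color is log2(CPM + 1) minus the gene's mean over all libraries. For Oas1a and Rtp4 the cDC1 libraries lie below all others, and for Usp18 every MLN library lies above every spleen library.

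Of the 11 sensors, 6 were higher in the T-bet+ subset, 7 were higher in the T-bet- subset and none was lower. Their median log2 fold change was 1.12 and 2.58. Oas1a, an oligoadenylate synthetase that activates RNase L on binding double-stranded RNA, stood at 2.1, 1.3 and 2.37 CPM in cDC1s, 73.3, 93.5 and 57.4 in T-bet- cDC2s and 70.4, 71.7 and 66.1 in T-bet+ cDC2s. The cDC1 libraries lay far below every cDC2 library, and the cDC2 subsets overlapped. The log2 fold change was 5.18 ± 0.33, adjusted p = 8.49e-06, in T-bet+ cDC2s and 5.29 ± 0.33, adjusted p = 8.35e-06, in T-bet- cDC2s. Its neighbour Oas1g was scarcer, at 0.405, 0.123 and 0.242 CPM in cDC1s, 4.04, 5.19 and 4.27 in T-bet- cDC2s and 2.06, 1.76 and 1.7 in T-bet+ cDC2s. Here the T-bet- libraries were highest and the 3 groups did not overlap, with log2 fold changes against cDC1s of 2.82 ± 0.48, adjusted p = 0.003, for T-bet+ and 4.10 ± 0.50, adjusted p = 0.00046, for T-bet- cDC2s. Oas2, another synthetase, was at 0, 0.411 and 0 CPM in cDC1s, 22.7, 10.7 and 12 in T-bet- cDC2s and 13.1, 16.7 and 13.2 in T-bet+ cDC2s. In cDC1s this rests on 10 reads in replicate 2 and 0 in the others, so its fitted fold changes (6.62 ± 0.96 and 6.69 ± 0.96) depend on the prior count.

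Ddx58 encodes RIG-I, a sensor of viral RNA ends, and had 1.9, 2.92 and 5.7 CPM in cDC1s, 96.7, 54 and 80 in T-bet- cDC2s and 74.1, 96.4 and 60 in T-bet+ cDC2s. It was low in every cDC1 library and alike in range in both cDC2 subsets. The log2 fold change against cDC1s was 4.46 ± 0.46, adjusted p = 0.000155, in T-bet+ and 4.46 ± 0.46, adjusted p = 0.000163, in T-bet- cDC2s. Oasl2, an OAS-like protein, showed 3.04, 4.36 and 4.54 CPM in cDC1s, 68.6, 64.6 and 59.9 in T-bet- cDC2s and 67.6, 66.9 and 55.9 in T-bet+ cDC2s. All cDC2 libraries lay above all cDC1 libraries, by 4.0 ± 0.25, adjusted p = 7.96e-06, and 4.02 ± 0.25, adjusted p = 8.35e-06, on the log2 scale. Zbp1 was higher in both (1.11 ± 0.26, adjusted p = 0.0161, and 1.34 ± 0.26, adjusted p = 0.00721). Oas3 was called only in T-bet- cDC2s (2.58 ± 0.44, adjusted p = 0.00336), where its levels were 27.7, 20.1 and 12.7 CPM, against 1.82, 3 and 5.27 in cDC1s. The difference between the cDC2 subsets was not called for Oas3 (-1.47 ± 0.42, adjusted p = 0.0824). Dhx58, Eif2ak2, Ifih1 and Oasl1 were not called in either comparison.

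Among the 17 effectors the directions were mixed. In T-bet+ cDC2s 7 were higher and 3 lower than in cDC1s, and in T-bet- cDC2s 8 were higher and 2 lower, with medians of 0.44 and 1.10. The Ifit genes, which bind viral RNA that lacks the host cap, were among the higher ones. Ifit3 stood at 0.972, 1.4 and 1.35 CPM in cDC1s, 15.3, 18.5 and 15.4 in T-bet- cDC2s and 21.1, 26.2 and 29.8 in T-bet+ cDC2s. The 3 groups did not overlap, with T-bet+ cDC2s highest, and the log2 fold change against cDC1s was 4.37 ± 0.29, adjusted p = 1.11e-05, for T-bet+ and 3.72 ± 0.29, adjusted p = 2.85e-05, for T-bet- cDC2s. Its near copy Ifit3b gave lower values of 0.0405, 0.165 and 0.0483 CPM in cDC1s, 4, 5.34 and 2.34 in T-bet- cDC2s and 4.51, 3.75 and 5.23 in T-bet+ cDC2s. Its cDC1 libraries were again lowest, by 5.64 ± 0.62, adjusted p = 0.000228, and 5.42 ± 0.61, adjusted p = 0.000305. Ifit1 had 1.01, 0.905 and 2.66 CPM in cDC1s, 10.5, 10.3 and 8.72 in T-bet- cDC2s and 20.3, 34.6 and 27.7 in T-bet+ cDC2s, so the groups were ordered as for Ifit3. Its log2 fold changes against cDC1s were 4.18 ± 0.47, adjusted p = 0.000249, and 2.69 ± 0.44, adjusted p = 0.00266.

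Gbp7 and Gbp3 belong to the guanylate-binding proteins, GTPases that attack the vacuoles of pathogens. Gbp7 stood at 0.243, 0.535 and 0.483 CPM in cDC1s, 30.1, 13.3 and 14.5 in T-bet- cDC2s and 12.2, 18.9 and 11.9 in T-bet+ cDC2s. It was under 1 CPM in each cDC1 library and above 11 CPM in each cDC2 library, a log2 fold change of 5.08 ± 0.49, adjusted p = 0.000109, for T-bet+ and 5.51 ± 0.50, adjusted p = 7.47e-05, for T-bet- cDC2s. Gbp3 had 4.01, 4.94 and 7.25 CPM in cDC1s, 66.3, 43.3 and 38.4 in T-bet- cDC2s and 13.8, 12.3 and 15.7 in T-bet+ cDC2s. The T-bet- libraries were highest and the groups did not overlap, with log2 fold changes against cDC1s of 1.37 ± 0.31, adjusted p = 0.0135, and 3.19 ± 0.33, adjusted p = 0.000174. Rsad2 (viperin), which blocks viral RNA synthesis, was also higher in both subsets (2.96 ± 0.34, adjusted p = 0.000284, and 3.54 ± 0.34, adjusted p = 0.000116).

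The effectors that were higher in spleen cDC1s were Mx1, Ly6e and Trim30a, named here after their values were seen. Mx1, a dynamin-like antiviral GTPase, had 43.9, 60.8 and 68.4 CPM in cDC1s, 15.6, 16.1 and 16.2 in T-bet- cDC2s and 7.33, 6.71 and 16.3 in T-bet+ cDC2s. Every cDC1 library lay above every cDC2 library, with log2 fold changes of -2.51 ± 0.37, adjusted p = 0.00141, for T-bet+ and -1.85 ± 0.36, adjusted p = 0.00722, for T-bet- cDC2s. Ly6e stood at 3413, 2577 and 2974 CPM in cDC1s, 1745, 2256 and 1406 in T-bet- cDC2s and 1657, 1597 and 1516 in T-bet+ cDC2s. Its groups did not overlap with cDC1s either, but the change was smaller (-0.91 ± 0.20, adjusted p = 0.0104, and -0.73 ± 0.20, adjusted p = 0.0323). Trim30a, a TRIM family protein, had 110.2, 145 and 153 CPM in cDC1s, 98.6, 73.1 and 52.5 in T-bet- cDC2s and 66, 67.8 and 51.6 in T-bet+ cDC2s. It was called in T-bet+ cDC2s (-1.13 ± 0.27, adjusted p = 0.0162) and not in T-bet- cDC2s (-0.86 ± 0.27, adjusted p = 0.0571). In MLN, cDC1s did not have the highest Mx1. Its MLN cDC1 libraries had 114, 215 and 162 CPM, against 293 and 257 in T-bet- and 48.3 and 238 in T-bet+ cDC2s. Mx1 was called in neither MLN comparison with cDC1s.

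Of the conjugation and feedback genes, 3 of 6 were higher in T-bet+ cDC2s than in cDC1s and 1 of 6 in T-bet- cDC2s. Isg15, the ubiquitin-like modifier, stood at 16.6, 12.4 and 12.5 CPM in cDC1s, 65.9, 84.5 and 30.1 in T-bet- cDC2s and 144, 121 and 100.2 in T-bet+ cDC2s. The 3 groups did not overlap and T-bet+ cDC2s were highest, with 3.14 ± 0.38, adjusted p = 0.000432, against cDC1s and 2.12 ± 0.37, adjusted p = 0.00373, for T-bet- cDC2s. Usp18 removes Isg15 from proteins and dampens the receptor, and Herc6 is the ligase that attaches it in mice. Usp18 was higher in T-bet+ cDC2s (1.64 ± 0.20, adjusted p = 0.000472), where its libraries had 166, 148 and 179 CPM against 49.8, 46.5 and 62.5 CPM in cDC1s, and not called in T-bet- cDC2s (0.56 ± 0.20, adjusted p = 0.0892). Herc6 was higher in T-bet+ cDC2s (1.31 ± 0.38, adjusted p = 0.0391), with 25.1, 33.2 and 22 CPM against 7.73, 7.45 and 17.3 CPM in cDC1s.

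Of the other 5 members, 3 were higher in each cDC2 subset, and 1, Phf11d, was lower in T-bet- cDC2s than in cDC1s (-1.40 ± 0.26, adjusted p = 0.00513) and not called in T-bet+ cDC2s (0.58 ± 0.25, adjusted p = 0.156). Rtp4, a transporter-family protein that restricts viral replication, had 1.01, 0.617 and 0.532 CPM in cDC1s, 58.3, 63.8 and 43.9 in T-bet- cDC2s and 61.6, 77.8 and 63.4 in T-bet+ cDC2s. It was near 1 CPM or below in cDC1s and above 40 CPM in every cDC2 library, with log2 fold changes of 6.54 ± 0.35, adjusted p = 3.94e-06, and 6.25 ± 0.35, adjusted p = 4.99e-06. Ifi27l2a stood at 6.03, 4.77 and 4.69 CPM in cDC1s, 113, 181 and 83 in T-bet- cDC2s and 105, 74.3 and 88.7 in T-bet+ cDC2s. All cDC2 libraries lay above all cDC1 libraries, by 4.11 ± 0.34, adjusted p = 4.05e-05, and 4.60 ± 0.35, adjusted p = 2.51e-05. Xaf1 was higher too (2.55 ± 0.37, adjusted p = 0.00118, and 2.87 ± 0.37, adjusted p = 0.000705).

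**Figure D3:**
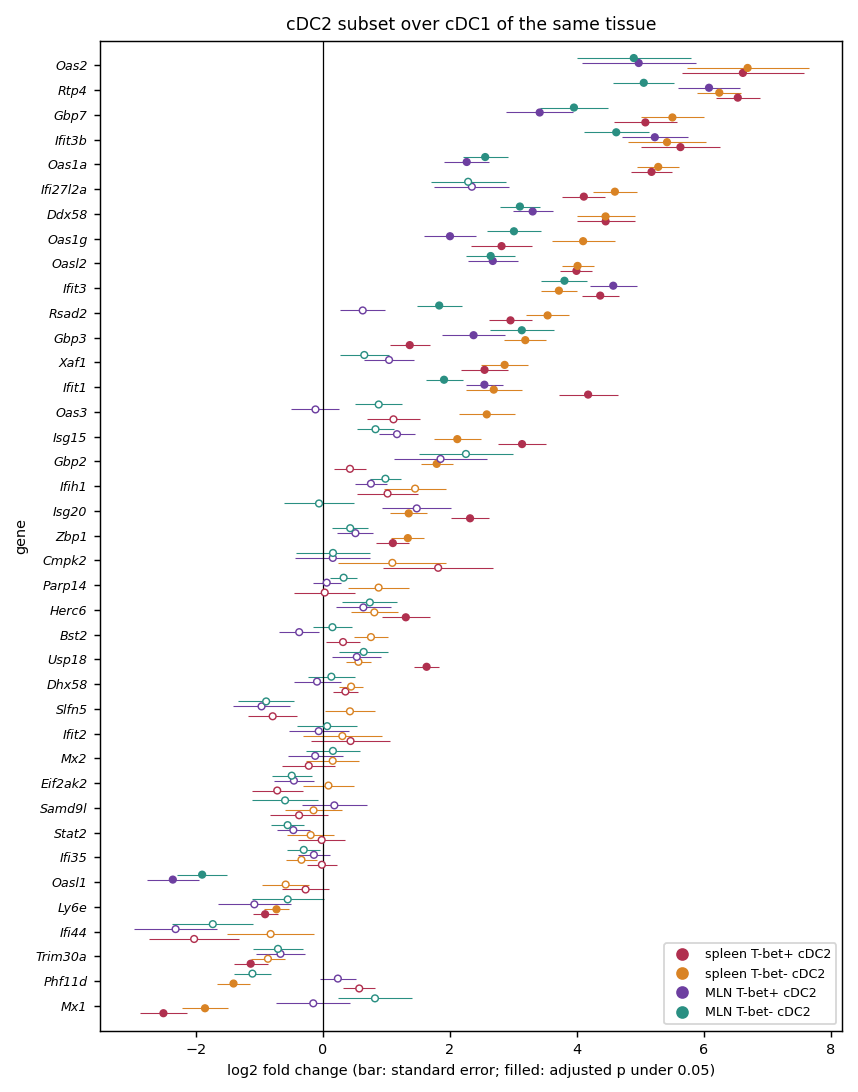
Log2 fold change (x axis, bars SE) of each member in T-bet+ or T-bet- cDC2s against cDC1s, in spleen and in MLN. Filled points passed an adjusted p under 0.05. The 4 comparisons share an axis and differ in color. Rtp4 lies furthest right or next to it in all 4 comparisons, at 5.06 to 6.54.

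The same comparison in MLN gave fewer calls and a smaller shift. Of the 39 members, 11 were higher and 1 lower in T-bet+ cDC2s than in cDC1s, where 4.11% of 15298 genes were higher and 2.11% lower. In T-bet- cDC2s, 12 were higher and 1 lower, where 4.34% were higher and 1.44% lower. The medians of the members were 0.54 and 0.66, and those of all genes -0.00 and 0.01. Of the 11 monocyte and macrophage markers, 8 were higher in T-bet- cDC2s than in cDC1s here too, and 1 was higher and 1 lower in T-bet+ cDC2s. Their part was not tested. Leaving out 1 library gave 8 to 15 members for T-bet+ cDC2s, with 8 without cDC1 replicate 3 or T-bet+ replicate 1. For T-bet- cDC2s it gave 4 to 12, with 4 without T-bet- replicate 1 and 7 without T-bet- replicate 2.

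Rtp4 in MLN was at 1.99, 1.17 and 1.35 CPM in cDC1s, 57.3 and 38.7 in T-bet- cDC2s and 144 and 58.2 in T-bet+ cDC2s. As in spleen, cDC1s were far below, with log2 fold changes of 6.09 ± 0.49, adjusted p = 0.000908, for T-bet+ and 5.06 ± 0.48, adjusted p = 0.00159, for T-bet- cDC2s. Ifit3 had 2.72, 3.08 and 1.78 CPM in cDC1s, 37.7 and 30 in T-bet- cDC2s and 74.9 and 43.8 in T-bet+ cDC2s. Its groups did not overlap and kept the order seen in spleen, by 4.58 ± 0.37, adjusted p = 0.000908, and 3.81 ± 0.36, adjusted p = 0.00159. Ifit3b had 0.324, 0.563 and 0.218 CPM in cDC1s, 10.8 and 6.54 in T-bet- cDC2s and 17.2 and 10.1 in T-bet+ cDC2s, and the folds were 5.23 ± 0.52, adjusted p = 0.00196, and 4.62 ± 0.51, adjusted p = 0.00308. Its T-bet+ and T-bet- libraries overlapped. Ddx58 stood at 7.79, 12.1 and 13.6 CPM in cDC1s, 103 and 78.5 in T-bet- cDC2s and 130.5 and 85 in T-bet+ cDC2s, which put all cDC2 libraries above all cDC1 libraries, by 3.31 ± 0.32, adjusted p = 0.00163, and 3.11 ± 0.32, adjusted p = 0.00199. These 4 members kept their calls in each of the 5 fits of both comparisons that left out 1 library.

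Ifit1, Oas1a, Oas1g, Oasl2, Gbp7, Gbp3 and Oas2 were also higher in both cDC2 subsets of MLN, and several of these calls were lost without 1 library. Ifit1 had 8.84, 14.3 and 10.7 CPM in cDC1s, 45.9 and 34.7 in T-bet- cDC2s and 75 and 53.9 in T-bet+ cDC2s, and its cDC1 libraries lay below all others (2.55 ± 0.29, adjusted p = 0.00365, and 1.91 ± 0.29, adjusted p = 0.0102). Oas1a had 15.5, 7.97 and 10.7 CPM in cDC1s, 71.9 and 57 in T-bet- cDC2s and 65.5 and 42.9 in T-bet+ cDC2s. The cDC1 libraries were lowest and held more than those of spleen, and the log2 fold change was 2.27 ± 0.35, adjusted p = 0.0108, for T-bet+ and 2.56 ± 0.36, adjusted p = 0.00723, for T-bet- cDC2s. The second call was lost without T-bet- replicate 1 (adjusted p = 0.0722). Oas1g had 1.91, 0.823 and 1.46 CPM in cDC1s, 10.6 and 11.2 in T-bet- cDC2s and 5.98 and 5.13 in T-bet+ cDC2s. Its groups did not overlap, with T-bet- cDC2s highest (2.01 ± 0.42, adjusted p = 0.0305, and 3.01 ± 0.42, adjusted p = 0.0073), and the call for T-bet- cDC2s was lost without either of its libraries (adjusted p 0.0572 to 0.0585).

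Oasl2 stood at 18.1, 18.1 and 13.2 CPM in cDC1s, 109 and 89 in T-bet- cDC2s and 149 and 59.7 in T-bet+ cDC2s. Both cDC2 subsets lay above cDC1s (2.68 ± 0.39, adjusted p = 0.00834, and 2.65 ± 0.39, adjusted p = 0.00898), and the call for T-bet- cDC2s was lost without either T-bet- library (adjusted p 0.0572 to 0.0872). Gbp7 had 1.99, 4.38 and 1.53 CPM in cDC1s, 53.2 and 23.8 in T-bet- cDC2s and 32.1 and 22.9 in T-bet+ cDC2s, again lowest in cDC1s (3.42 ± 0.53, adjusted p = 0.0108, and 3.96 ± 0.54, adjusted p = 0.00685), where the call for T-bet- cDC2s was lost without T-bet- replicate 1 (adjusted p = 0.0622). Gbp3 had 14.7, 23.9 and 24.2 CPM in cDC1s, 207 and 142 in T-bet- cDC2s and 47.5 and 164 in T-bet+ cDC2s, with the T-bet+ libraries far apart. Its log2 fold changes were 2.38 ± 0.50, adjusted p = 0.0312, and 3.14 ± 0.51, adjusted p = 0.0124. They lost their call without any 1 cDC1 library or T-bet+ replicate 2 in the former (adjusted p 0.0641 to 0.108), and without cDC1 replicate 3 or either T-bet- library in the latter (adjusted p 0.0503 to 0.104).

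Oas2 in MLN was at 1.05, 1.95 and 0.0728 CPM in cDC1s, 35.5 and 22.5 in T-bet- cDC2s and 43.9 and 19.3 in T-bet+ cDC2s. The cDC1 libraries again held few reads, 26, 45 and 2, and the fitted folds of 4.98 ± 0.90, adjusted p = 0.019, and 4.90 ± 0.90, adjusted p = 0.0202, were lost without T-bet+ replicate 1 (adjusted p = 0.0743) and without cDC1 replicate 1 or either T-bet- library (adjusted p 0.0514 to 0.14). Oasl1, which represses Irf7 translation, was the 1 member lower in both cDC2 subsets. It had 115, 199 and 178 CPM in cDC1s, 53.2 and 29.8 in T-bet- cDC2s and 23.5 and 38.6 in T-bet+ cDC2s. All cDC1 libraries lay above all cDC2 libraries (-2.36 ± 0.41, adjusted p = 0.0162, and -1.90 ± 0.40, adjusted p = 0.0325), and the call for T-bet+ cDC2s was lost without cDC1 replicate 3 or T-bet+ replicate 1 (adjusted p 0.0536 to 0.0933). Rsad2 completed the 12 members higher in T-bet- cDC2s (1.84 ± 0.36, adjusted p = 0.0246). Isg15 was not called in MLN (1.17 ± 0.28, adjusted p = 0.052, for T-bet+ and 0.83 ± 0.28, adjusted p = 0.147, for T-bet- cDC2s), although its 114 and 136 CPM in T-bet+ cDC2s lay above the 66.4, 56.2 and 46.6 CPM of cDC1s.

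Fewer members were called between the cDC2 subsets than between either subset and cDC1s. In spleen 2 of 39 were higher and 2 lower in the T-bet+ subset than in the T-bet- subset, where 1.95% of all genes were higher and 3.44% lower, and the median of the members was -0.18 against -0.01 for all genes. At an unadjusted p under 0.05 there were 11 members. Phf11d, a PHD finger protein, stood at 13, 16.2 and 12.7 CPM in cDC1s, 5.3, 5.29 and 5.21 in T-bet- cDC2s and 15.7, 22.6 and 23.9 in T-bet+ cDC2s. T-bet- cDC2s had the lowest values without overlap, and the log2 fold change of 1.98 ± 0.26, adjusted p = 0.00267, held in all 6 fits that left out 1 library. Usp18 had 49.8, 46.5 and 62.5 CPM in cDC1s, 84.6, 69.5 and 80.5 in T-bet- cDC2s and 166, 148 and 179 in T-bet+ cDC2s. Its T-bet+ libraries lay above all others (1.07 ± 0.20, adjusted p = 0.0143), and the call was lost without T-bet- replicate 2 or any 1 T-bet+ library (adjusted p 0.0509 to 0.0722). Gbp3, with the levels above, was lower in T-bet+ cDC2s (-1.82 ± 0.31, adjusted p = 0.0104), and lost its call without T-bet+ replicate 1 or 2 (adjusted p 0.0576 to 0.0627). Gbp2 was at 25.7, 19.6 and 30.7 CPM in cDC1s, 107, 71.1 and 85.7 in T-bet- cDC2s and 31, 35.5 and 35.7 in T-bet+ cDC2s. Its T-bet- libraries lay above the others (-1.37 ± 0.25, adjusted p = 0.0133), and the call was lost without any 1 T-bet+ library (adjusted p 0.0598 to 0.0771). In all, 1 member was called without T-bet+ replicate 1 or 2 and 2 without T-bet+ replicate 3. The 11 monocyte and macrophage markers moved with this comparison, 8 of 11 lower in T-bet+ cDC2s, and their part in these results was not tested.

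In MLN no member was called between the cDC2 subsets in edgeR (4 at an unadjusted p under 0.05, 1 in DESeq2), where 0% of all genes were called. The monocyte and macrophage markers were not called there either, although all 11 had an unadjusted p under 0.05 and their median was -4.19. The lack of calls therefore does not show that the subsets were alike. The 3 members with the smallest p were Phf11d, Rsad2 and Isg20. Phf11d had 44.3 and 33.6 CPM in the T-bet+ libraries and 17.5 and 12.2 in the T-bet- libraries, without overlap (1.35 ± 0.32, adjusted p = 0.272). Rsad2 had 39.3 and 83.6 CPM in the T-bet+ libraries and 120.3 and 158 in the T-bet- libraries, again without overlap (-1.20 ± 0.40, adjusted p = 0.397). Isg20, an exonuclease of viral RNA, had 69.9 and 35.4 CPM in the T-bet+ libraries and 16.9 and 18.4 in the T-bet- libraries (1.54 ± 0.61, adjusted p = 0.494). No member's difference between the subsets differed between tissues (edgeR, 1 at an unadjusted p under 0.05, 0 in DESeq2), where 0.00595% of 16795 genes did.

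Most members had lower values in spleen than in MLN, above all in cDC1s. In cDC1s none was higher in spleen and 28 of 39 were lower, where 3.93% of 16795 genes were higher and 7.75% lower. In T-bet+ cDC2s none was higher and 11 were lower, where 1.3% were higher and 3.79% lower. In T-bet- cDC2s none was higher and 9 were lower, where 1.58% were higher and 4.36% lower. The medians of the members were -1.80, -0.96 and -0.68 on the log2 scale, and those of all genes -0.01, -0.00 and 0.04. In cDC1s 38 of the 39 members had a negative fold, with Ly6e the exception (0.90 ± 0.37, adjusted p = 0.122). Ly6e was also higher in spleen, without overlap between tissues, in both cDC2 subsets. So were Oas1a and Cmpk2 in T-bet+ and Isg20 in T-bet- cDC2s. None of these was called. The labels give no batch for any library, and no fit with a batch term was made. Tissue and sequencing run therefore cannot be told apart in these comparisons. Migratory DC markers moved the same way, with 6, 4 and 5 of 7 lower in spleen cDC1s, T-bet+ and T-bet- cDC2s. The 10 plasmacytoid DC markers summed to between 75.7 and 103 CPM in spleen cDC1s and between 137 and 340 CPM in MLN cDC1s. In T-bet+ cDC2s these sums were 127 to 150 CPM in spleen and 295 to 404 in MLN. In T-bet- cDC2s they were 182 to 230 and 453 to 586 CPM. The T and NK cell markers, 7 of 9 tested, gave 4, 1 and 1 lower in spleen cDC1s, T-bet+ and T-bet- cDC2s, and summed to 0.967 to 1.5 CPM in spleen cDC1s and 5.27 to 22.9 CPM in MLN cDC1s. The neutrophil markers, 5 of 6 tested, gave 1, 3 and 4 higher in spleen, and summed to at most 111 CPM in spleen and 13.9 CPM in MLN. The part of the markers in these results was not tested. Across 7636 genes, a library's deviation from the mean of all 16 was set against GC content by rank correlation. GC content here is that of the most GC-rich 100 bases of the gene's longest transcript. The correlation was 0.207 to 0.34 in 6 spleen libraries. It was -0.405 to 0.0434, under the limit of 0.1 used to divide the libraries, in the 7 MLN libraries and in spleen cDC1 replicate 3 and T-bet- replicates 1 and 2. With that library class as a term the counts called were 16 for cDC1s, 0 for the T-bet+ subset and 8 for the T-bet- subset. In T-bet+ cDC2s all spleen libraries lay above that limit and all MLN libraries below it. Class and tissue coincide in that subset, so its count of 0 cannot tell them apart.

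**Figure D4:**
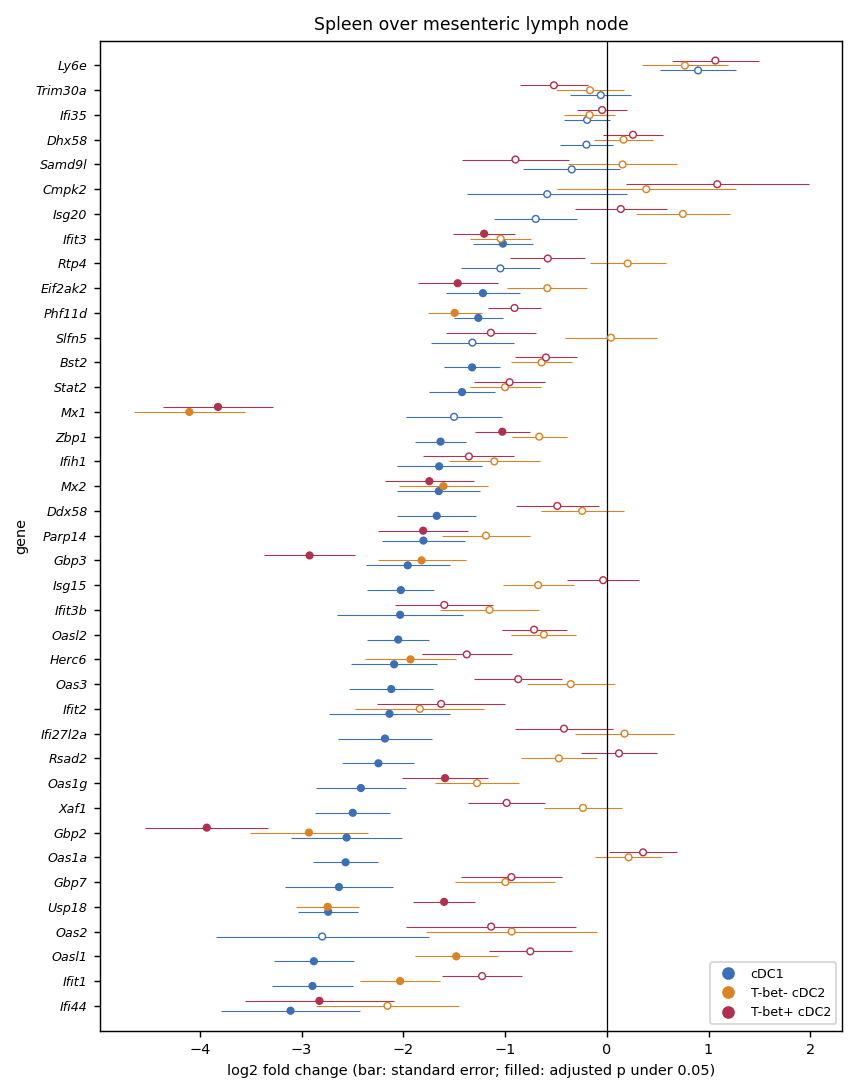
Log2 fold change (x axis, bars SE) of each member in spleen against MLN, with a color for each subset on a shared axis. Filled points passed an adjusted p under 0.05. All filled points lie left of 0, and 28 of 39 are filled in cDC1s.

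In cDC1s the fall in spleen took in every role, with 9 of 11 sensors, 10 of 17 effectors, 5 of 6 conjugation and feedback genes and 4 of 5 others. The sensors Oas1a and Oasl1 were among the 10 largest. Oas1a had 2.1, 1.3 and 2.37 CPM in spleen and 15.5, 7.97 and 10.7 in MLN (-2.57 ± 0.32, adjusted p = 0.000755). Oasl1 had 18.5, 22.1 and 26.3 CPM in spleen and 115, 199 and 178 in MLN (-2.88 ± 0.39, adjusted p = 0.00119). Neither overlapped between tissues. Oas1g fell as well (-2.42 ± 0.44, adjusted p = 0.00524), from 1.91, 0.823 and 1.46 CPM in MLN to 0.405, 0.123 and 0.242 in spleen.

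Among effectors and feedback genes of cDC1s, Ifit1 had 1.01, 0.905 and 2.66 CPM in spleen and 8.84, 14.3 and 10.7 in MLN (-2.89 ± 0.40, adjusted p = 0.00119). Usp18 had 49.8, 46.5 and 62.5 CPM in spleen and 238, 391 and 432 in MLN (-2.74 ± 0.30, adjusted p = 0.000308). Both were separate between tissues in every library. Gbp7 (-2.63 ± 0.53, adjusted p = 0.00844), Rsad2 (-2.25 ± 0.35, adjusted p = 0.00237) and Xaf1, an antagonist of an apoptosis inhibitor (-2.50 ± 0.37, adjusted p = 0.00182), were separate too. Xaf1 had 1.66, 2.22 and 2.85 CPM in spleen and 18.5, 9.71 and 9.79 in MLN. Gbp2 had 25.7, 19.6 and 30.7 CPM in spleen and 55, 220.2 and 172 in MLN (-2.56 ± 0.55, adjusted p = 0.0109), and lost its call without spleen replicate 1 or 2 or MLN replicate 2 (adjusted p 0.0519 to 0.0629). Ifi44, with 3.4, 3.13 and 6.67 CPM in spleen and 72.2, 18.5 and 23.1 in MLN (-3.11 ± 0.68, adjusted p = 0.0124), lost it without spleen replicate 1 or 2 (adjusted p 0.0652 to 0.0709). Without spleen cDC1 replicate 1, 16 members were called in cDC1s and without replicate 2, 14.

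In T-bet+ cDC2s, where MLN held 2 libraries far apart, the calls depended on single libraries. The 11 members called were Gbp2, Mx1, Gbp3, Ifi44, Parp14, Mx2, Usp18, Oas1g, Eif2ak2, Ifit3 and Zbp1. Gbp2 had 31, 35.5 and 35.7 CPM in spleen and 158 and 883 in MLN (-3.93 ± 0.60, adjusted p = 0.00437). Mx1 had 7.33, 6.71 and 16.3 CPM in spleen and 48.3 and 238 in MLN (-3.82 ± 0.54, adjusted p = 0.00293). Gbp3 had 13.8, 12.3 and 15.7 CPM in spleen and 47.5 and 164 in MLN (-2.92 ± 0.44, adjusted p = 0.00437). In all 3 the tissues did not overlap, and MLN replicate 2 was several times above replicate 1. Without MLN replicate 2 none of the 11 was called, with adjusted p of 0.106 for Gbp2, 0.0616 for Mx1 and 0.121 for Gbp3. Without spleen replicate 1 or 2 there were 3 members, without spleen replicate 3 or MLN replicate 1 there were 6.

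The other members called in T-bet+ cDC2s had smaller changes, and each was lost in at least 1 such fit. Ifi44 (-2.83 ± 0.73, adjusted p = 0.0421) lost its call without spleen replicate 1 or 2 or either MLN library (adjusted p 0.116 to 0.204). Parp14, a mono-ADP-ribosyltransferase (-1.81 ± 0.44, adjusted p = 0.033), Oas1g (-1.59 ± 0.42, adjusted p = 0.0452), Eif2ak2, the kinase PKR (-1.47 ± 0.39, adjusted p = 0.0476), and Ifit3 (-1.21 ± 0.30, adjusted p = 0.0377) lost it in all 5 fits, with adjusted p between 0.0503 and 0.317. Mx2 (-1.75 ± 0.44, adjusted p = 0.0384) and Usp18 (-1.60 ± 0.31, adjusted p = 0.012) lost it in 3 of the 5, those without spleen replicate 1 or 2 or MLN replicate 2 (adjusted p 0.111 to 0.391, and 0.0532 to 0.348). Zbp1, a sensor of Z-form nucleic acid, was the 11th (-1.03 ± 0.27, adjusted p = 0.044).

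In T-bet- cDC2s, Mx1 and Usp18 kept their calls in all 5 fits that left out 1 library. Mx1 had 15.6, 16.1 and 16.2 CPM in spleen and 293 and 257 in MLN (-4.10 ± 0.55, adjusted p = 0.00151), the largest change of a member there. Usp18 had 84.6, 69.5 and 80.5 CPM in spleen and 558 and 490.2 in MLN (-2.74 ± 0.31, adjusted p = 0.000911). Both genes were separate between tissues. Gbp2 had 107, 71.1 and 85.7 CPM in spleen and 771 and 569 in MLN (-2.93 ± 0.58, adjusted p = 0.0109), and its call was lost without spleen replicate 2 or MLN replicate 1 (adjusted p 0.0531 to 0.0784). Ifit1 (-2.03 ± 0.40, adjusted p = 0.0103) and Phf11d (-1.50 ± 0.27, adjusted p = 0.00673) lost theirs without MLN replicate 1 (adjusted p = 0.102 and 0.0973). Herc6 (-1.93 ± 0.45, adjusted p = 0.0229) lost it without spleen replicate 2 or either MLN library (adjusted p 0.0515 to 0.225), and Gbp3 (-1.82 ± 0.43, adjusted p = 0.0256) without those or spleen replicate 3 (adjusted p 0.0566 to 0.224). Mx2 (-1.61 ± 0.44, adjusted p = 0.046) and Oasl1 (-1.48 ± 0.41, adjusted p = 0.0472) lost it in all 5 fits (adjusted p 0.056 to 0.25, and 0.0649 to 0.411). The count was 2 without MLN replicate 1, 4 without spleen replicate 2 and 5 without MLN replicate 2.

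Whether the gap between cDC2s and cDC1s differed between tissues was tested directly, with both cDC2 subsets averaged. Of the 39 members, 1 passed (14 at an unadjusted p under 0.05, 7 in DESeq2), where 0.113% of 16795 genes did. The median of the members was 0.66, and 32 of 39 were positive, meaning that the log2 fold change of cDC2s against cDC1s was greater in spleen. A positive value is not always a wider gap, since Oasl1, for example, was lower in cDC2s in MLN. The member was Oas1a, with a log2 difference of 2.85 ± 0.40, adjusted p = 0.014. Its levels in each library are given above. The cDC1 libraries of spleen lay below those of MLN without overlap, the T-bet- cDC2 libraries of the tissues overlapped, and the T-bet+ cDC2 libraries of spleen lay above those of MLN. Without spleen cDC1 replicate 2 the difference was 2.59 with an adjusted p of 0.0517. It passed in the other 15 fits that left out 1 library.

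The genes of the pathway around these members differed less evenly. No interferon gene was above the filter. The 5 ligand genes in the table summed to at most 0.415 CPM in any library and were not tested. Of the 17 receptor and signalling genes, 2 were higher and 4 lower in spleen T-bet+ cDC2s than in cDC1s, and 1 and 1 in T-bet- cDC2s. In MLN 0 and 1 and then 0 and 0 were called. Of the 8 interferon regulatory factors, 1 was higher and 2 lower in spleen T-bet+ cDC2s than in cDC1s, and 1 and 3 in T-bet- cDC2s. Ifnar1, a receptor chain, had 141, 188 and 212 CPM in cDC1s, 242, 198 and 258 in T-bet- cDC2s and 99.3, 111 and 99.4 in T-bet+ cDC2s. It was lower in spleen T-bet+ cDC2s than in T-bet- cDC2s (-1.17 ± 0.21, adjusted p = 0.0121) and than in cDC1s (-0.80 ± 0.21, adjusted p = 0.024). Ifnar2, the other chain, had 71.2, 69.4 and 31.5 CPM in cDC1s, 40.6, 72.1 and 199 in T-bet- cDC2s and 158, 164 and 149 in T-bet+ cDC2s, with the T-bet- libraries spread widely, and was called in no comparison. Irf7, the factor that amplifies interferon production, was lower in spleen cDC1s than in MLN cDC1s, with 177, 152 and 198 CPM in spleen and 669.6, 280.1 and 284 in MLN (-1.23 ± 0.35, adjusted p = 0.0368). Irf9 was called nowhere.

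Among the 14 adaptors and receptors of nucleic acid sensing a few genes had large contrasts. Of the 14, 3 were higher and 2 lower in spleen T-bet+ cDC2s than in cDC1s, 4 and 1 in T-bet- cDC2s, and in MLN 2 and 1 and then 3 and 1. Tlr7, the receptor for single-stranded RNA in endosomes, had 0, 0.247 and 0.58 CPM in cDC1s, 108, 60.7 and 73.2 in T-bet- cDC2s and 52.7, 113 and 52.8 in T-bet+ cDC2s. It was under 1 CPM in every cDC1 library and above 50 CPM in every cDC2 library (8.07 ± 0.85, adjusted p = 0.000185, for T-bet+ and 8.21 ± 0.86, adjusted p = 0.000179, for T-bet- cDC2s). Tlr3, the receptor for double-stranded RNA, had 178, 317 and 443 CPM in cDC1s, 10.9, 8.94 and 7.44 in T-bet- cDC2s and 2.22, 3.15 and 2.53 in T-bet+ cDC2s. It ran the other way (-6.89 ± 0.42, adjusted p = 6.63e-06, and -5.11 ± 0.38, adjusted p = 2.5e-05). Ikbke, a kinase that activates Irf3, had 0, 0.0375 and 0 CPM in spleen T-bet+ cDC2s and 4.77, 1.18 and 2.57 in T-bet- cDC2s (-7.27 ± 1.21, adjusted p = 0.00883). The fitted folds of Tlr7 and Ikbke rest on few reads in the lower group.

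A list of 64 other interferon-stimulated genes in the table, 57 of them tested in spleen, gave 20 higher and 7 lower in T-bet+ cDC2s than in cDC1s and 20 and 4 in T-bet- cDC2s. In MLN it gave 11 and 3 and then 8 and 0. In spleen against MLN, with 58 tested, 4 were higher and 22 lower in cDC1s, 0 and 18 in T-bet+ cDC2s and 1 and 12 in T-bet- cDC2s. Its median log2 fold change in spleen cDC2s against cDC1s was 0.23 and 0.57. A separate list of interferon gamma-inducible genes, 25 tested in spleen and 27 in the other fits, ran lower in spleen cDC2s than in cDC1s, with 2 higher and 9 lower in the T-bet+ subset and 1 and 6 in the T-bet- subset. Against MLN it gave 0 higher and 11, 7 and 8 lower in spleen cDC1s, T-bet+ and T-bet- cDC2s. Ido1, the tryptophan-degrading enzyme, fell further than any member, with at most 0.491 CPM in spleen cDC2s (-7.41 ± 1.07, adjusted p = 0.00338, for T-bet+ and -7.80 ± 1.09, adjusted p = 0.0023, for T-bet- cDC2s). Between the cDC2 subsets of spleen, 2 of 57 other interferon-stimulated genes were higher and 5 lower in T-bet+ cDC2s, with Ifi205, a DNA-binding protein of the AIM2-like family, at -4.75 ± 0.28, adjusted p = 4.43e-05. Mnda and Ifi204 of the same family (-3.68 ± 0.36 and -3.58 ± 0.45), Tlr8 (-5.17 ± 1.17) and the chemokine Cxcl9 (-3.30 ± 0.27) were lower there too. Against cDC1s in MLN, Ifitm1, which blocks viral fusion, was among the largest rises (6.59 ± 0.41, adjusted p = 0.000414, for T-bet+ and 5.11 ± 0.39, adjusted p = 0.000694, for T-bet- cDC2s). In spleen against MLN cDC1s, Slfn1 (-3.24 ± 0.63), Ifi213 (-3.23 ± 0.55) and the Isg15-conjugating enzyme Ube2l6 (-2.86 ± 0.53) fell most, and all passed the test.

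Chromatin at these loci was read from 193 windows of 150 bases around peak summits, assigned to 30 of the 39 members, of which 181 passed the filter on low counts. Bst2, Cmpk2, Ifi27l2a, Ifit1, Ifit3b, Isg15, Oas2, Phf11d and Xaf1 had no window. Windows were called at an adjusted p under 0.01 where the log2 fold change also exceeded 0.5 in size. In T-bet+ cDC2s against cDC1s, 23 windows were more and 25 less accessible, at 19 members, where 11% of all 166547 windows were more and 12% less accessible. For T-bet- cDC2s the counts were 24 and 16, at 18 members, where 7.31% and 10.6% of all windows were called. Between the cDC2 subsets, 3 windows were more and 4 less accessible in T-bet+ cDC2s, at 6 members, where 3.92% and 2.35% of all were. Within promoters, taken as 2000 bases around a transcript start, 95 windows of 22 members were tested. Of these, 13 were more and 10 less accessible in T-bet+ cDC2s than in cDC1s, 17 and 5 in T-bet- cDC2s, and 0 and 2 between the cDC2 subsets. The share over promoter windows of all genes was not computed, so these promoter counts are a description only. The counts at member loci fell to 33 to 39 for T-bet+ cDC2s without 1 library and to 22 to 28 for T-bet- cDC2s, with 22 and 25 without cDC1 replicate 1 and 2.

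The window with 4 ISRE matches at the start of an Rtp4 transcript, printed above in part, lay at chr16:23609816-23609965. It had 1.88 and 4.14 CPM in cDC1s, 15.9 and 12 in T-bet- cDC2s and 13.6 and 16.2 in T-bet+ cDC2s. All cDC2 libraries lay above both cDC1 libraries, by 2.32 ± 0.29, adjusted p = 7.46e-10, and 2.22 ± 0.29, adjusted p = 5.79e-09. At Ifit3, a window that overlaps the upstream end of the printed promoter and holds neither ISRE match in full (chr19:34583231-34583380) had 1.29 and 0.906 CPM in cDC1s, 4.39 and 3.21 in T-bet- cDC2s and 2.26 and 3.83 in T-bet+ cDC2s, and it was more accessible in both cDC2 subsets (1.45 ± 0.46, adjusted p = 0.00981, and 1.76 ± 0.45, adjusted p = 0.00166). The Oas1a promoter window (chr5:120907517-120907666) had 0.941 and 1.29 CPM in cDC1s, 3.17 and 4.31 in T-bet- cDC2s and 3.23 and 2.28 in T-bet+ cDC2s. It was called in T-bet- cDC2s (1.75 ± 0.45, adjusted p = 0.00162) and not in T-bet+ cDC2s (1.30 ± 0.46, adjusted p = 0.0238). In an intron of Rsad2 (chr12:26449632-26449781), a window with 1.53 and 1.04 CPM in cDC1s, 7.57 and 5.92 in T-bet- cDC2s and 6.9 and 6.63 in T-bet+ cDC2s, was more accessible in both cDC2 subsets (2.38 ± 0.38, adjusted p = 5.05e-07, for T-bet+ and 2.36 ± 0.38, adjusted p = 9.58e-07, for T-bet- cDC2s).

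The largest changes in the other direction marked windows open in cDC1s. In an exon of Eif2ak2 (chr17:78870350-78870499), with 2 ISRE matches, a window had 4.24 and 8.41 CPM in cDC1s, 0.366 and 0.1 in T-bet- cDC2s and 0.216 and 0 in T-bet+ cDC2s. It was nearly closed in cDC2s (-5.72 ± 0.66, adjusted p = 4.8e-11, and -4.74 ± 0.59, adjusted p = 9.33e-10), while Eif2ak2 RNA was not called between these groups in spleen. An intron window of Ifih1, the sensor MDA5 (chr2:62599581-62599730), had 4.12 and 4.01 CPM in cDC1s, 0.488 and 0.301 in T-bet- cDC2s and 0.108 and 0.207 in T-bet+ cDC2s, again high in cDC1s alone (-4.56 ± 0.64, adjusted p = 1.95e-08, and -3.35 ± 0.55, adjusted p = 1.56e-06). At Trim30a a window near an alternative transcript start at the 3′ end of the gene (chr7:104410733-104410882) had 7.88 and 8.15 CPM in cDC1s, 1.59 and 1.6 in T-bet- cDC2s and 0.216 and 0.829 in T-bet+ cDC2s. It was less accessible in cDC2s (-3.89 ± 0.46, adjusted p = 8.49e-11, and -2.32 ± 0.38, adjusted p = 1.42e-06), the same direction as its RNA. A second Ifih1 window (-3.66 ± 0.78, adjusted p = 0.00011), a Parp14 window (-3.02 ± 0.56, adjusted p = 1.17e-05) and a window near Gbp3 (-3.01 ± 0.62, adjusted p = 5.91e-05) were also less accessible in T-bet+ cDC2s. An exon window of Mx2 was less accessible in T-bet- cDC2s (-2.51 ± 0.61, adjusted p = 0.000935), a call lost without either cDC1 library or T-bet- replicate 2 (adjusted p 0.0104 to 0.0202).

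Between the cDC2 subsets, the strongest call was an intron window of Isg20 (chr7:78918727-78918876), with 11.8 and 8.41 CPM in cDC1s, 3.91 and 2.21 in T-bet- cDC2s and 15.2 and 13.1 in T-bet+ cDC2s. It was lowest in T-bet- cDC2s (2.23 ± 0.29, adjusted p = 2.08e-08), and the call held in all 4 fits that left out 1 library. An intron window of Ddx58 (chr4:40233231-40233380) had 1.77 and 1.29 CPM in cDC1s, 2.56 and 3.31 in T-bet- cDC2s and 7 and 9.32 in T-bet+ cDC2s, highest in T-bet+ cDC2s (1.46 ± 0.33, adjusted p = 0.00102), and lost its call without T-bet- replicate 1 or T-bet+ replicate 2 (adjusted p 0.0262 to 0.0329). Downstream of Ly6e, a window (chr15:74962214-74962363) with 2.12 and 2.46 CPM in cDC1s, 7.81 and 5.32 in T-bet- cDC2s and 2.59 and 1.76 in T-bet+ cDC2s, was higher in T-bet- cDC2s (-1.58 ± 0.36, adjusted p = 0.00111), and lost its call without T-bet- replicate 1 or T-bet+ replicate 2 (adjusted p 0.0273 to 0.0545). A neighbouring window gave -1.53 ± 0.36, adjusted p = 0.00158, and lost its call without T-bet- replicate 1 or T-bet+ replicate 1 (adjusted p 0.0155 to 0.0462). Calls at Parp14 (2.34 ± 0.61, adjusted p = 0.00498) and at the Samd9l promoter (-0.91 ± 0.25, adjusted p = 0.00983) were lost whichever library was left out (adjusted p 0.013 to 0.0765 and 0.0264 to 0.146).

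**Figure D5:**
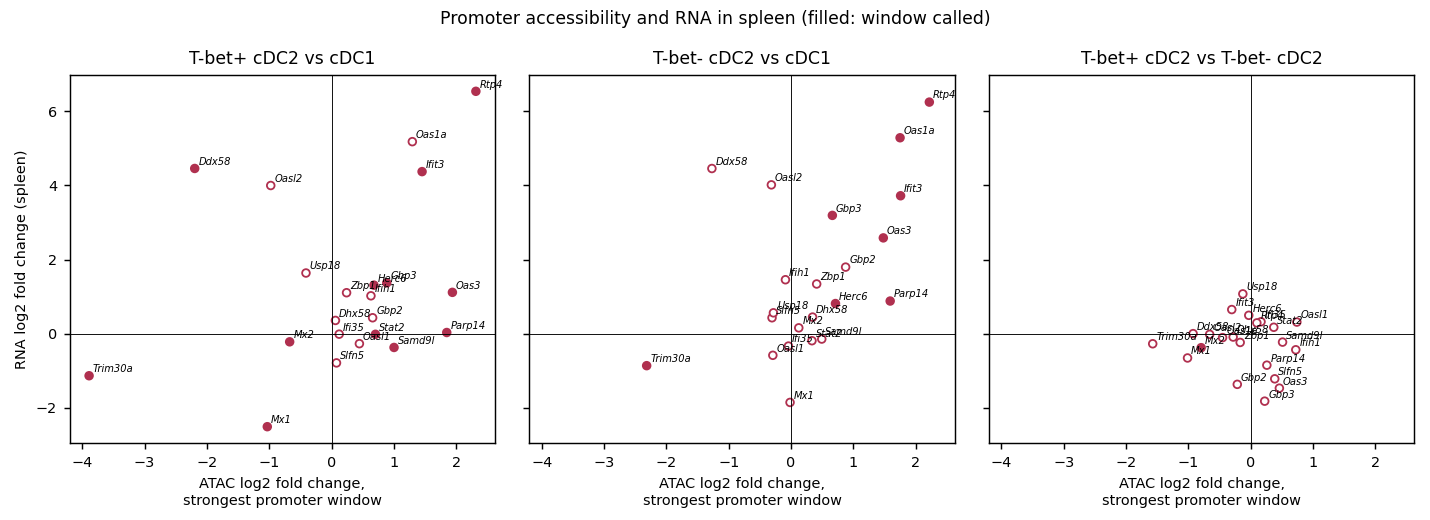
RNA log2 fold change in spleen (y axis) against ATAC-seq log2 fold change of the strongest promoter window (x axis) for 22 members, in 3 comparisons. Filled points are windows that were called. Rtp4 lies at the upper right in both comparisons with cDC1s, Trim30a at the lower left and Ddx58 at the upper left.

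RNA and the strongest promoter window had the same sign for 14 of 22 members in T-bet+ cDC2s against cDC1s. It was 15 of 22 for T-bet- cDC2s against cDC1s and 12 of 22 between the cDC2 subsets. Both were called for 7 members in T-bet+ cDC2s against cDC1s, 6 of them with the same sign. For T-bet- cDC2s both were called for 5, all with the same sign. The exception was Ddx58 in T-bet+ cDC2s against cDC1s, where the window was less accessible (-2.20) and the RNA higher (4.46). That window was near an alternative transcript start, 32584 bases inside the gene from its own start. The Trim30a window, which counts among those with the same sign, also lay near an alternative start, at the 3′ end of the gene. ISRE matches were in 15 of the 181 windows at these loci (8.29%), against 2.45% of the 161024 windows tested outside chromosome 18.

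The 18 members with an ISRE match in the promoter and the 11 without are set side by side as a description. In spleen T-bet+ cDC2s against cDC1s, 10 were higher and 1 lower among those with a match, with a median of 2.1, and 4 and 0 among those without, with a median of 0.58. For T-bet- cDC2s it was 12 and 0 (median 2.64) and then 3 and 1 (0.31). In MLN the counts were 8 and 0 (1.51) and then 1 and 1 (0.18) for T-bet+ cDC2s, and 9 and 0 (1.87) and then 1 and 1 (-0.06) for T-bet- cDC2s. In cDC1s of spleen against MLN, 16 with a match and 7 without were lower, with medians of -1.99 and -2.05. The difference between members with and without a match was not tested.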

How the data were processed

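RNA-seq was made from total RNA with SMARTer amplification. The deposited RNA-seq tables hold raw counts per gene, made by the authors from uniquely aligned reads (HISAT2 2.1.0, mm10, GENCODE annotation, per the study's methods and the submitters' processing notes). The deposited ATAC-seq table holds counts per window of 150 bases around summits that the authors called on all replicates together (Bowtie2 2.2.5, MACS2 2.1.1.20160309). The deposited summit list carries the caller's −log10 significance and the deposited peak list a constant score of 0, and neither of these values was used for results, only the positions. Genes were tested with edgeR 4.0.16 (filterByExpr, TMM, quasi-likelihood, Benjamini-Hochberg over all genes tested, R 4.3.3), in 1 fit per tissue and in 1 fit of all 16 libraries for spleen against MLN. Errors are standard errors of the log2 fold change. CPM are TMM-scaled over all 16 libraries. Windows went to the closest gene within 50000 bases (GENCODE M21), and promoter sequences came from RefSeq. Alternatives were DESeq2 1.42.0 and its size factors, no filter, a replicate block and leaving out each library. The newer quasi-dispersion estimate, the term for library class by GC content outside the spleen comparisons (set within each tissue for comparisons within it, over all 16 libraries between tissues) and leaving out both MLN libraries named number 1 were chosen after seeing the data. The scripts were tested on simulated data.

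Members and gene lists were chosen with earlier results of these data known. The genes named are, per comparison, up to 10 members called with the largest log2 fold change (with none called, the 3 smallest p), the 5 highest and the lowest levels per tissue, the near-identical pairs, up to 6 called pathway genes with Irf7, Irf9, Ifnar1 and Ifnar2, and up to 6 called windows. Replicates labelled with the same number did not deviate together throughout, so they were not treated as pairs. One sentence of the study's methods reverses RFP and T-bet, and the labels were followed. The result of 1 further pathway gene is not reported here.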

Additional observations from a re-analysis of the deposited data

Results flagged for a closer look

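The gap between cDC2s and cDC1s in Oas1a differed between spleen and MLN by 2.85 on the log2 scale in the test of the difference itself (edgeR, adjusted p = 0.014). It was the only member of the 39 to pass that test in edgeR. Without spleen cDC1 replicate 2 the adjusted p was 0.0517.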

How the results depend on the processing

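The members called between spleen T-bet+ and T-bet- cDC2s numbered 4, and 8 with DESeq2 or without the filter on low counts, and 1 to 5 without 1 library. In MLN the 0 became 1 with DESeq2 and 2 without the filter. Against MLN cDC1s, T-bet+ cDC2s gave 12, 6 with library class as a term and 8 to 15 without 1 library, and T-bet- cDC2s 13 and 4 to 12. For spleen against MLN, cDC1s gave 28, 16 with library class as a term and 14 to 27 without 1 library. T-bet+ cDC2s gave 11, 17 with DESeq2 or without the filter and 20 with only the compared libraries. They gave 7 without both MLN libraries named number 1 and 0 to 6 without 1 library. With library class as a term they gave 0, and class coincided with tissue in that subset. T-bet- cDC2s gave 9, 14 without the filter and 2 to 8 without 1 library. The difference between tissues gave 1, 7 with DESeq2 and 0 to 3 without 1 library. Called windows between the cDC2 subsets went from 7 to 1 with DESeq2, 17 at an adjusted p under 0.05 and 4 to 5 without 1 library. Against cDC1s they went from 48 to 30 with DESeq2 for T-bet+ cDC2s, and from 40 to 18 with DESeq2 and 22 to 28 without 1 library for T-bet- cDC2s. Gbp3's difference between tissues of T-bet+ against T-bet- cDC2s was -1.10, and -1.75 to 0.088 without 1 library, reversed without MLN T-bet+ replicate 2. For T-bet+ cDC2s of spleen against MLN the genes tested numbered 16795, 34000 with DESeq2 and 14533 with only the compared libraries. The counts over all genes or windows in these alternatives, and in those below, are not given here. A rise or fall of a count is therefore not shown to be particular to the members. The causes were not tested.

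With the replicate number as a replicate block, T-bet+ cDC2s of spleen against MLN gave 6 members. With the number in the library names as the replicate block, both MLN comparisons with cDC1s gave 20. Same-numbered spleen libraries correlated between -0.74 and 0.43 in their deviations across genes. MLN libraries with the same number in their names correlated between -0.01 and 0.66, and those with different numbers between -0.66 and 0.46. The main fits took no numbers to pair libraries in either tissue. Whether the MLN numbers mark pairs was not tested. Few reads limit Oas2 in cDC1s, and MLN cDC2s had 2 libraries each.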
